A study of Mus musculus with 6 samples.

Results

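The genes described here move pyruvate into the mitochondrial matrix, turn it into acetyl-CoA, run the TCA cycle and refill its intermediates. They are 34 genes listed by function, of which 32 were measured among 19505 genes on the arrays. Mpc2 and Glud1 were not analysed here, because no probe set was paired with either symbol. The list covers the pyruvate carrier, subunits of the pyruvate dehydrogenase complex with its kinases and phosphatases, part of the cycle's enzymes, and enzymes of anaplerosis and transamination. Aconitase, succinate dehydrogenase and the dehydrogenase Dld are not on it. The study asked how the heart changes in chronic kidney disease (CKD), and compared hearts of 3 CKD mice with hearts of 3 sham mice, all Balb/c, on 1 Affymetrix Clariom S array per mouse. In the CKD mice (5/6 nephrectomy) part of the right renal cortex was burnt by electrocoagulation and the left kidney was taken out 2 weeks later. In the sham mice the abdomen was opened and the kidneys were left alone. Per the methods, the animals were males operated on from an age of 8 weeks, and it is not said which feeding period the hearts on the arrays came from.

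Pyruvate dehydrogenase joins glycolysis to the TCA cycle and is switched off when a kinase phosphorylates its alpha subunit and on when a phosphatase removes that phosphate. The kinase Pdk4 is known for its rise in fasted or diabetic heart muscle, where it spares glucose while fatty acids are burnt. The TCA cycle oxidises acetyl-CoA to carbon dioxide and passes the electrons to the respiratory chain, and anaplerotic enzymes such as pyruvate carboxylase and the malic enzymes exchange carbon with it. Heart muscle carries these enzymes at high levels.

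All values are deposited log2 levels from robust multiarray averaging. This method removes background and brings the probe values of the arrays to 1 common distribution before they are joined into levels. Differences are CKD minus sham on that scale, from a limma fit over all genes, and each adjusted p is Benjamini-Hochberg adjusted over all genes. A gene was counted as past the limits where its fold change exceeded 1.5 and its unadjusted p was below 0.05, as the methods define a changed gene. Levels of different genes come from different probes and are not set against each other. The median array level was between 4.83 and 4.86, and correlations between arrays ranged from 0.981 to 0.995. A few marker genes differed widely among mice of 1 group. The Y-linked gene Uty had log2 levels of 4.67, 4.29 and 7.97 in CKD hearts and 4.48, 2.08 and 2.17 in sham hearts, although the methods call the mice male. The atrial gene Bmp10 had 6.49, 6.05 and 11.02 in CKD hearts and 5.67, 1.5 and 0.97 in sham hearts. In both genes CKD replicate 3 was the highest and sham replicates 2 and 3 were the lowest. The atrial genes Myl4, Myl7 and Sln shared these extremes, and Nppa and Nr2f2 did not. Nppa had 17.91, 17.52 and 19.13 in CKD hearts and 19.02, 18.77 and 18.32 in sham hearts, with CKD replicates 1 and 2 the lowest. Of the 12 markers of cardiac muscle, none passed the limits, and their median log2 fold change was −0.03. A mean above 19, close to the ceiling of the measured range, was reached by 4 of the 12, and differences may be squeezed there.

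Most of the pathway did not pass the test in CKD hearts. Of the 32 genes, Pdp2 and Pdpr, both of the phosphatase side of pyruvate dehydrogenase, were higher, the malic enzyme Me3 was lower, and 29 did not pass the limits. Over all genes 6.32% passed, 3.13% as higher and 3.19% as lower, so 3 of 32 is a share of the same order and is no result about the pathway as a whole. Without the fold limit Dlat also reached an unadjusted p under 0.05, which made 4 of 32 against 9.14% of all genes. None of the 32 had an adjusted p under 0.05 from limma, and 2 of the 19505 genes did. The median log2 fold change of the 32 genes was 0.12, against 0.00 for all genes, and 21 values were above 0 and 11 below. The values ran between −0.81 for Me3 and 0.72 for Pdk4. Without sham replicate 2 none of the 32 passed the limits. The methods' t-test put none past the limits and 1, Dlat, at an unadjusted p under 0.05. Without CKD replicate 3 there were 4, with Pdk4 added, and without sham replicate 3 there were 2, Pdp2 and Ogdhl.

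**Figure D1:**
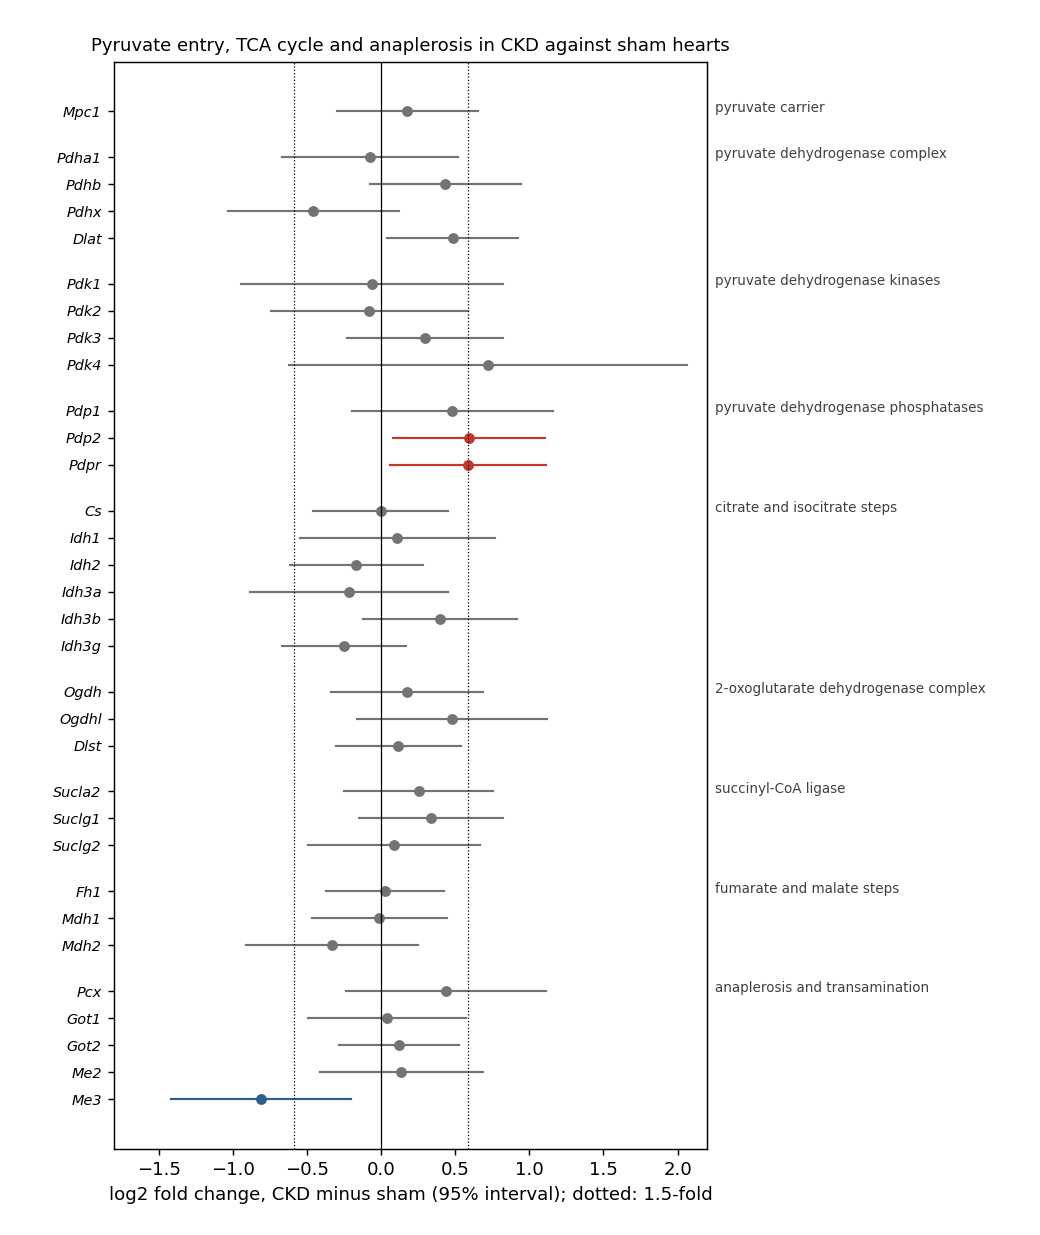
Log2 fold change of each of the 32 measured genes, CKD minus sham, with its 95% confidence interval from limma (n = 3 mice per group), grouped by role. Red marks the 2 genes higher past the limits (Pdp2, Pdpr), blue the 1 lower gene (Me3), and the dotted lines stand at a fold change of 1.5.

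Of the 3 subunits of pyruvate dehydrogenase phosphatase, Pdp2 and Pdpr were higher in CKD hearts, beside 3.13% of all genes. Both are single calls close to the fold limit, and the subunits were not tested as a group. Pdp2, a catalytic subunit, had log2 levels of 6.30, 6.75 and 6.03 in CKD hearts and 5.67, 5.71 and 5.92 in sham hearts. Every CKD heart lay above every sham heart, by little for CKD replicate 3. These levels were not far above the median level of the arrays, and no detection calls were given. The log2 fold change of Pdp2 was 0.59 (1.509-fold, standard error 0.23, 95% interval 0.08 to 1.10, adjusted p = 0.474 from limma). Pdpr, the regulatory subunit, had 9.69, 8.99 and 8.98 in CKD hearts and 8.73, 8.60 and 8.57 in sham hearts. The groups of Pdpr did not overlap either, and CKD replicate 1 stood clear of the other hearts. Its log2 fold change was 0.59 (1.502-fold, standard error 0.23, 95% interval 0.06 to 1.11, adjusted p = 0.493 from limma). That value is past the fold limit by less than the second decimal to which the levels were deposited. Pdp1, the other catalytic subunit and the calcium-sensitive form in muscle, had 11.36, 12.00 and 12.12 in CKD hearts and 11.91, 10.99 and 11.14 in sham hearts. Sham replicate 1 lay close to the upper CKD hearts, and the gene did not pass (log2 fold change 0.48, 95% interval −0.20 to 1.16). Pdp2 fell short of the limits without CKD replicate 2 (0.40), sham replicate 1 (0.55) or sham replicate 2 (0.57), and Pdpr without CKD replicate 1 (0.35), sham replicate 2 (0.57) or sham replicate 3 (0.56). Pdp1 passed them without CKD replicate 1 (0.71) or sham replicate 1 (0.76). With array weights Pdp1 (0.77) and Dlat (0.59) passed, and Pdp2 (0.48) and Pdpr (0.50) did not.

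**Figure D2:**
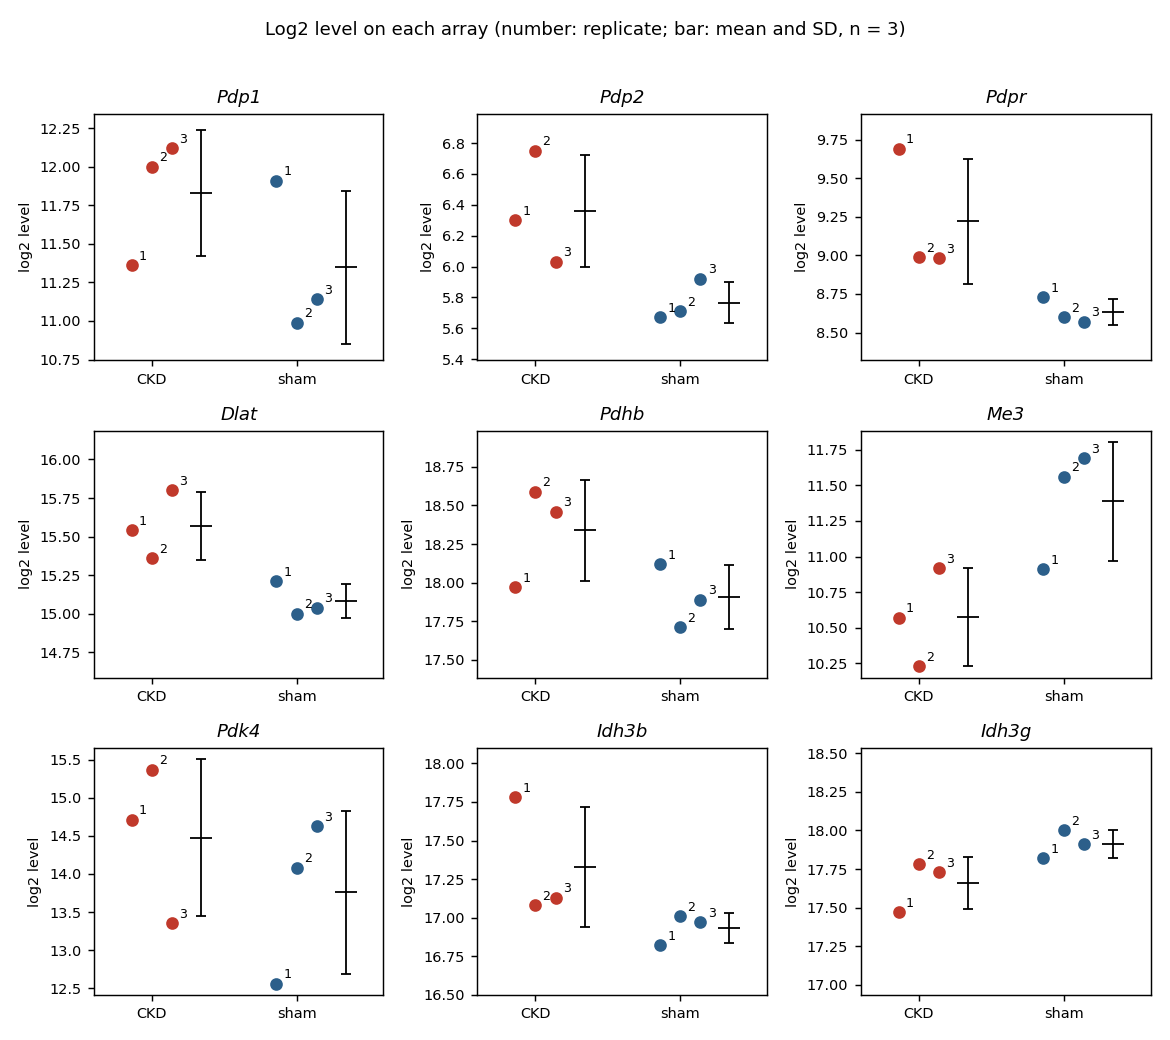
Log2 level of 9 genes on every array, with CKD mice on the left of each panel and sham mice on the right. Points carry the replicate number, and the bar beside them is the mean with its SD (n = 3 mice). The groups do not overlap for Pdp2, Pdpr, Dlat, Idh3b and Idh3g, and Pdk4 spreads over more than 2 log2 units within each group.

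None of the 4 kinases that switch pyruvate dehydrogenase off passed the limits. Pdk4 had the widest spread of the 32 genes. Its log2 level was 14.71, 15.37 and 13.35 in CKD hearts, a mean of 14.48 ± 1.03 (SD, n = 3), and 12.56, 14.08 and 14.63 in sham hearts, a mean of 13.76 ± 1.07 (SD, n = 3). CKD replicate 3 and sham replicate 1 were the low hearts, and the groups overlapped over most of their range. The log2 fold change was 0.72, and its 95% interval of −0.63 to 2.07 spans both directions. Without CKD replicate 3 the value was 1.28 and passed the limits, without sham replicate 1 it was 0.12, and with array weights it was 0.04. Pdk2, a kinase found in most tissues, had 15.33, 15.06 and 15.70 in CKD hearts and 14.83, 15.69 and 15.81 in sham hearts. Pdk1, a kinase induced by low oxygen, had 12.96, 14.73 and 13.76 in CKD hearts and 13.61, 14.02 and 14.00 in sham hearts. Both genes had values near 0 (−0.08 for Pdk2 and −0.06 for Pdk1), and for Pdk1 the highest and the lowest of the 6 hearts were both CKD. Pdk3 lay below the median level of its arrays in every heart, at 3.95, 3.63 and 4.03 in CKD hearts and 3.98, 3.33 and 3.41 in sham hearts. No detection calls were given, so it is unknown whether this kinase was detected.

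Pdk4 was set beside its known regulators and beside other targets of PPARα, the fatty acid receptor that drives it, from lists of such genes. Of 10 measured regulators, the coactivator Ppargc1a was lower (−0.65, adjusted p = 0.424 from limma) and none was higher. Ppara itself had log2 levels of 8.64, 8.19 and 8.56 in CKD hearts and 9.11, 8.75 and 9.08 in sham hearts. Its groups did not overlap, but the change of −0.52 was short of the fold limit (adjusted p = 0.497). Nrip1, a corepressor of nuclear receptors, had the next smallest p of the regulators, with a log2 fold change of 0.48 (adjusted p = 0.672 from limma). Of 14 measured PPAR targets, Ucp3, an uncoupling protein, was higher (0.88) and Plin2, which coats lipid droplets, was lower (−0.90, adjusted p = 0.344). Over all genes 3.13% were higher and 3.19% lower. Plin5, another droplet protein, had −0.48. Of the 14 targets 4 values were above 0 and 10 below, with a median of −0.16. The groups did not overlap for 3 of the 14 targets, Plin2, Acadvl and Ech1, all lower in CKD, against 13.6% of all genes. They overlapped for Ucp3. Acadvl and Ech1, enzymes of fatty acid oxidation, had −0.26 and −0.32, short of the limits. Angptl4, an inhibitor of lipoprotein lipase, had 7.5, 8.42 and 7.28 in CKD hearts and 6.51, 7.85 and 7.94 in sham hearts. As in Pdk4, CKD replicate 2 was the highest heart and sham replicate 1 the lowest.

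The pyruvate dehydrogenase complex itself showed values in both directions. Dlat, the acetyltransferase that forms its core, had log2 levels of 15.54, 15.36 and 15.80 in CKD hearts and 15.21, 15.00 and 15.04 in sham hearts. The groups did not overlap, and an exact two-sided permutation test gave p = 0.1, the smallest that 3 mice against 3 allow. The log2 fold change of Dlat was 0.48 (standard error 0.20, adjusted p = 0.497 from limma), which is short of the fold limit, and without CKD replicate 2 it was 0.59, past the limits. Pdhb, the beta subunit of the decarboxylase, had 17.97, 18.59 and 18.46 in CKD hearts and 18.12, 17.71 and 17.89 in sham hearts (0.43, 95% interval −0.08 to 0.94). In Pdhb CKD replicate 1 lay among the sham hearts and the other CKD hearts above them, and without it the value was 0.62, past the limits. Pdha1, the alpha subunit that carries the regulatory phosphates, had 15.14, 15.72 and 16.15 in CKD hearts and 15.82, 15.61 and 15.81 in sham hearts. Its change was −0.08, and the CKD hearts spread over a full log2 unit around the sham hearts. Pdhx, which anchors the shared dehydrogenase Dld to the core, had 9.80, 9.12 and 9.87 in CKD hearts and 9.82, 10.35 and 9.99 in sham hearts (−0.46, 95% interval −1.03 to 0.12). Dld, which was not on the list of 34, had 0.46 (standard error 0.26). Mpc1, a subunit of the carrier that brings pyruvate into the matrix, had 0.18 (95% interval −0.30 to 0.65).

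In the first span of the cycle none of the 6 listed genes passed the limits, and aconitase was not among them. Citrate synthase (Cs), which is used as a measure of mitochondrial content, had log2 levels of 15.96, 16.05 and 16.48 in CKD hearts and 16.14, 16.14 and 16.22 in sham hearts. The log2 fold change of Cs was 0.00, with a 95% interval of −0.46 to 0.45, and changes within that interval were not excluded with 3 mice a group. The 3 subunits of the NAD-dependent isocitrate dehydrogenase did not go together. Idh3b had 17.78, 17.08 and 17.13 in CKD hearts and 16.82, 17.01 and 16.97 in sham hearts, so that all CKD hearts lay above the sham hearts. Idh3g had 17.47, 17.78 and 17.73 in CKD hearts and 17.82, 18.00 and 17.91 in sham hearts, so that all CKD hearts lay below them. CKD replicate 1 was the extreme heart for both genes. The changes, 0.40 for Idh3b (adjusted p = 0.660 from limma) and −0.25 for Idh3g (adjusted p = 0.741), were short of both limits. Idh3a, the catalytic subunit, had 16.83, 17.94 and 17.88 in CKD hearts and 17.82, 17.68 and 17.80 in sham hearts, where again CKD replicate 1 stood apart (−0.22, and 0.14 without it). The NADP-dependent enzymes had 0.11 for the cytosolic Idh1 and −0.17 for the mitochondrial Idh2. With Pdp2, Pdpr and Dlat, these made 5 of 32 genes whose groups did not overlap, 4 of them higher in CKD, against 13.6% of all genes.

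From 2-oxoglutarate to oxaloacetate none of the 9 listed genes passed the limits, and succinate dehydrogenase was not among them. Its subunit Sdha, followed with the rest of the pathway, was higher past the limits (1.17, adjusted p = 0.336 from limma). The subunits Sdhb, Sdhc and Sdhd did not pass. Ogdh, the decarboxylase of the 2-oxoglutarate dehydrogenase complex, had 0.18, and Dlst, its succinyltransferase core, had 0.12. Ogdhl, a relative of Ogdh best known from brain, had 7.94, 7.69 and 8.22 in CKD hearts and 6.95, 7.46 and 8.01 in sham hearts. Its change of 0.48 passed the limits only without sham replicate 3 (0.75). The ligase that makes succinate from succinyl-CoA had 0.34 for its shared alpha subunit Suclg1, 0.25 for the ADP-forming Sucla2 and 0.09 for the GDP-forming Suclg2. Fumarase (Fh1) had 14.92, 15.05 and 14.99 in CKD hearts and 15.01, 14.84 and 15.03 in sham hearts. It had the narrowest 95% interval of the 32 genes, −0.37 to 0.43. The malate dehydrogenases had −0.01 for the cytosolic Mdh1 and −0.33 for the mitochondrial Mdh2. Mdh1 was the 1 gene with a mean above 19, close to the ceiling of the measured range, and its small differences may be squeezed there.

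Among enzymes that feed or drain the cycle Me3 was lower and the other 4 measured genes did not pass. Me3, the NADP-dependent malic enzyme of mitochondria, had log2 levels of 10.57, 10.23 and 10.92 in CKD hearts and 10.91, 11.56 and 11.69 in sham hearts. The groups overlapped only in that CKD replicate 3 and sham replicate 1 were almost level. The log2 fold change was −0.81 (0.569-fold, standard error 0.27, 95% interval −1.42 to −0.21, adjusted p = 0.443 from limma). It fell short of the p limit without CKD replicate 2 (−0.64), sham replicate 2 (−0.73) or sham replicate 3 (−0.66), and with the methods' t-test. Me2, the NAD-dependent form, had 0.14. Pcx, pyruvate carboxylase, had 5.08, 4.25 and 5.48 in CKD hearts and 4.47, 4.63 and 4.40 in sham hearts. In Pcx CKD replicate 2 was the lowest heart of all and the other CKD hearts were the highest (0.44, 95% interval −0.24 to 1.11), and without CKD replicate 2 the value was 0.78, past the limits. The aspartate aminotransferases of the malate-aspartate shuttle had 0.04 for the cytosolic Got1 and 0.12 for the mitochondrial Got2.

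Pyruvate carboxylase is also abundant in fat cells, and marker genes of these cells were counted beside it. Of 11 measured adipocyte markers 3, Car3, Scd1 and Acaca, were higher, beside 3.13% of all genes, and none was lower. The other markers did not pass the limits. Among them Adipoq, Cidec and Retn had 1.34, 0.91 and 1.02, and Plin1, Lep and Fabp4 had 0.17, 0.20 and 0.11. The median log2 fold change of the 11 was 0.91. Adipoq, which defines these cells, had 5.67, 5.47 and 8.11 in CKD hearts and 4.33, 5.96 and 4.93 in sham hearts. The log2 of the summed adipocyte markers ran from 18.55 to 18.76 in CKD hearts and from 18.36 to 18.64 in sham hearts, and the groups overlapped. Nearly all of that sum was Fabp4, at 18.56, 18.54 and 18.73 in CKD hearts and 18.36, 18.64 and 18.51 in sham hearts. The sum therefore says little about the other markers. CKD replicate 3 was the highest heart for both Adipoq and Pcx, while the lowest was sham replicate 1 for Adipoq and CKD replicate 2 for Pcx. Of 11 macrophage markers 4 were lower, beside 3.19% of all genes, and none was higher, with a median of −0.79. The summed level of the macrophage markers ran from 13.92 to 14.83 in CKD hearts and from 14.16 to 15.68 in sham hearts. The part of these cells in the values of the pathway was not tested, and in whole hearts fewer cells of a type and less RNA per cell cannot be told apart. Of the 32 genes 3 are X-linked (Pdha1, Pdk3 and Idh3g), and the part of the uneven Y-linked levels in their values was not tested.

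Hearts of the same group also differed from each other in this pathway. CKD replicate 3 was the highest of the 6 hearts for 13 of the 32 genes and the lowest for 0, a share of 40.6% and 0%. It was the highest for 19.5% and the lowest for 12.1% of the 2589 genes with a mean log2 level above 10, where most of the 32 lie, and for 16.2% and 15.4% of all genes. CKD replicate 1 was the lowest for 10 genes, among them Pdha1, Pdk1, Idh3a, Mdh1 and Mdh2, and the highest for 3. Its share of lowest values, 31.2%, was close to the 28.9% among genes above a level of 10 and is no trait of this pathway, and over all genes it was 21.5%. Sham replicate 1 was the lowest for 9, among them Pdk2, Pdk4, Ogdh, Ogdhl, Suclg1 and Got1, and the highest for 0, against 18.2% lowest and 11% highest among genes above a level of 10. The median deviation of the 32 genes from their own means was −0.07, 0.01 and 0.17 in CKD replicates 1, 2 and 3, and −0.12, −0.08 and 0.06 in sham replicates 1, 2 and 3. The groups overlapped in this measure, and its SD between mice of a group, 0.11, was close to the median fold change of 0.12.

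**Figure D3:**
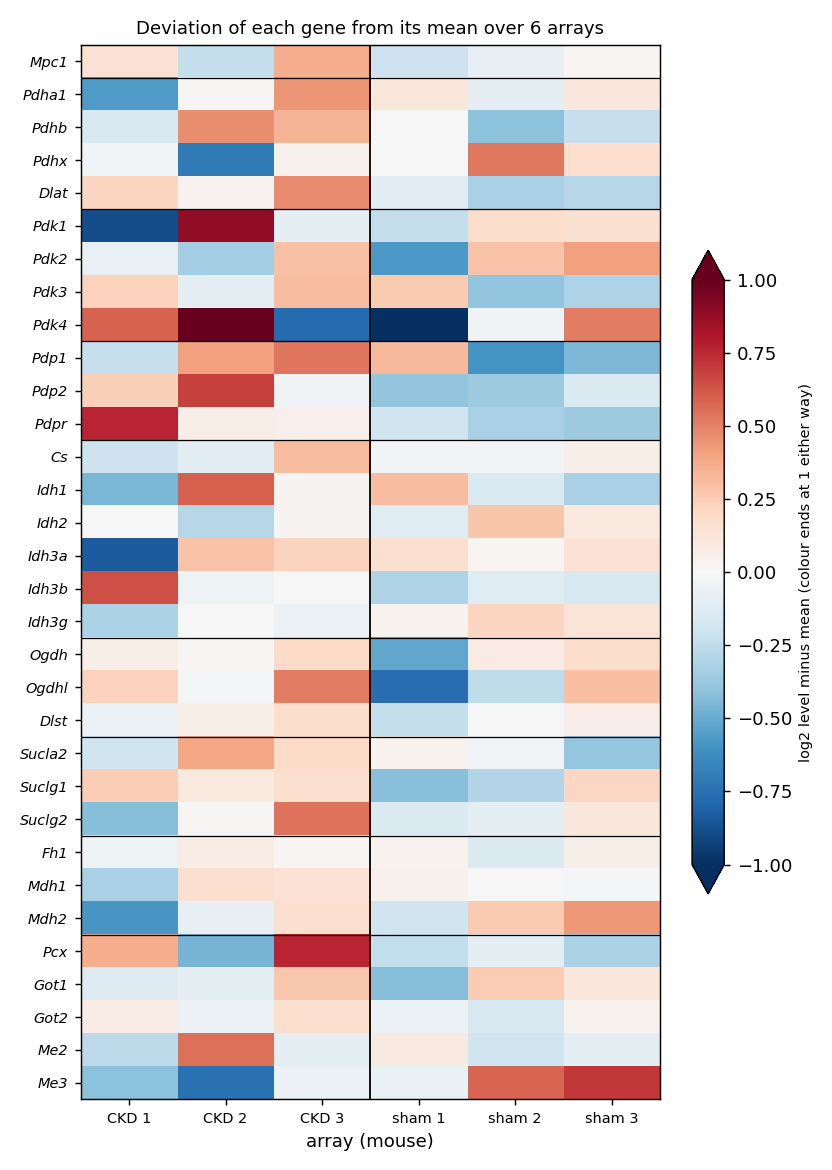
Log2 level of each of the 32 genes on each array minus its mean over the 6 arrays, with CKD mice on the left and sham mice on the right, and lines between the roles. Red is above and blue below the mean, and the colour stops at 1 either way. Some blocks of colour follow single mice, such as the blue cells of CKD replicate 1 for Pdha1, Pdk1 and Idh3a.

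**Figure D4:**
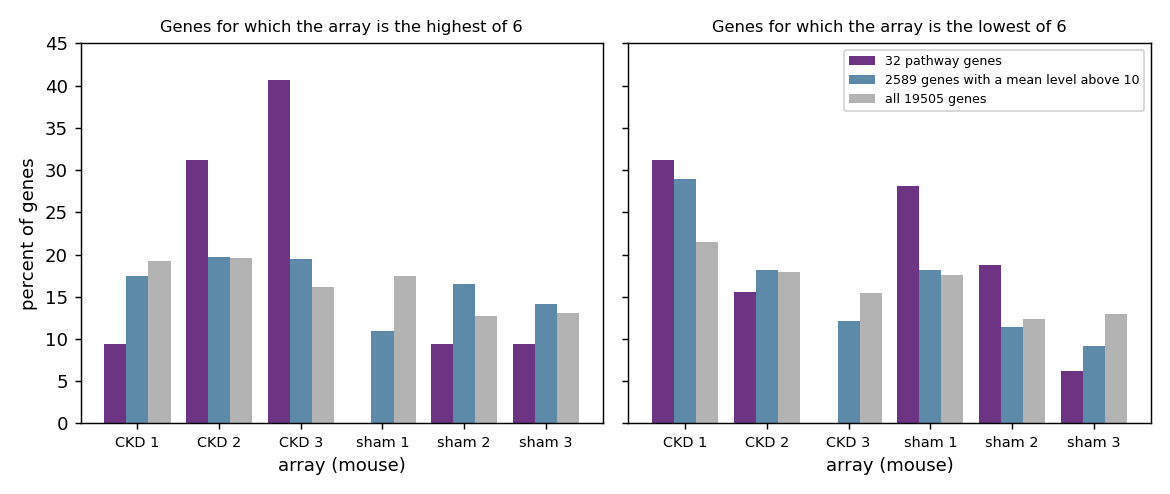
Percent of genes for which each array was the highest (left) or the lowest (right) of the 6, for the 32 pathway genes (purple), the 2589 genes with a mean log2 level above 10 (blue) and all 19505 genes (grey), with CKD mice first. CKD replicate 3 was the highest for 40.6% of the pathway genes and 19.5% of the genes above 10, and CKD replicate 1 was the lowest for 31.2% and 28.9%.

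The rest of the pathway was followed in a list of 30 genes, of which 26 were measured. It holds other enzymes of the cycle, the lactate dehydrogenases, lipoate synthesis, and carriers of the inner membrane. In CKD hearts 2 were higher, beside 3.13% of all genes, none was lower, and the median log2 fold change was 0.01. Slc25a1, the carrier that exports citrate from mitochondria for fatty acid synthesis, had 7.77, 6.70 and 8.62 in CKD hearts and 5.78, 6.54 and 6.04 in sham hearts. Its groups did not overlap, and its change was the largest of the 26 (1.58, standard error 0.43, adjusted p = 0.346 from limma). Sdha, the flavoprotein of succinate dehydrogenase, had 12.45, 11.44 and 12.14 in CKD hearts and 10.93, 10.73 and 10.85 in sham hearts (1.17, adjusted p = 0.336). Its partner subunits had −0.18 for Sdhb, 0.30 for Sdhc and 0.01 for Sdhd, none past the limits. Pck2, the mitochondrial enzyme that turns oxaloacetate into phosphoenolpyruvate, had no overlap between groups and a change of 0.54, short of the fold limit. Ldha, which makes lactate from pyruvate, had 16.34, 16.44 and 16.80 in CKD hearts and 16.66, 17.21 and 17.18 in sham hearts (−0.49, adjusted p = 0.570).

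NRF1, IRF1 and ERRα, factors that the study followed, have known DNA elements, and their letters were looked for before the start sites of these genes. RefSeq promoter windows on GRCm38.p6 were found for 29 of the 32 genes, and the 250 bases before each start were read on both strands. The ERR element TCAAGGTCA was in none of the 39 windows of these genes, against 0.387% of all windows. The NRF1 core GCATGCGC was in 2 overlapping windows of Ogdh, against 2.26% of all. The IRF element, GAAA and GAAA with 2 free bases between, was in 1 window of Suclg2, against 2.98% of all. Both stretches are given in the direction of the gene with the match in capitals, Ogdh from chr11:6292528-6292557 on the plus strand and Suclg2 from chr6:95718953-95718982 on the minus strand, to show the places where these letters occur.
Ogdh: cgggctaggtgttgtGCGCATGCgtaactc
Suclg2: ccctccttccTTTCTTTTTCccaattccct
Both matches read as the reverse complement of the element. Neither gene passed the limits, with changes of 0.18 for Ogdh and 0.09 for Suclg2. A match of letters is not a bound site, and a window without one says nothing about the factor.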

How the data were processed

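Total RNA of hearts, 250 ng per mouse, was labelled with biotin and hybridised to 6 arrays. The authors deposited log2 levels from RMA, as the submitters' processing notes call it, with no version in the sources used here. Of 22206 probe sets, 19572 had 1 gene symbol in the platform annotation, 0 had several and 2634 were unnamed here. In 55 genes with several probe sets the brightest stood for the gene, giving 19505 genes. None of the 32 genes described had more than 1.

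Groups were compared with limma 3.58.1 (lmFit, then eBayes) under R 4.3.3, with no covariate, and the fit was tested on simulated data. The methods name the limits but no test for the arrays. The number of arrays limits the precision. Mice are the replicates. Of the 32 genes, each past the limits, with an unadjusted p under 0.05 or without overlap between groups is given on each array, with Pdk1 to Pdk4, Pdha1, Cs and Pcx. The other genes given on each array, and Angptl4 and Ldha, were chosen after their values were seen, as were the promoter motifs. The genes and lists were chosen with earlier results of these data known. No list was tested as a set. Markers of brown fat, skeletal muscle, lymphocytes, fibroblasts, endothelium, atrium and red cells were also counted, and their counts are among the observations. Figures were drawn with matplotlib 3.10.9.

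The alternatives were the methods' t-test, trend and robust options, array weights, repeated quantile normalization, cyclic loess, centring on array medians, filters on dim genes, averaged probe sets, a replicate block, the removal of each array, and other limits.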

Additional observations from a re-analysis of the deposited data

How the results depend on the processing

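Of 318 values of single genes under settings other than leaving out an array, 300 kept their direction and their side of the limits, 7 lost and 2 gained the call, and 9 changed sign. Of 192 values with 1 array left out, 154 kept both, 9 lost and 7 gained the call, and 22 changed sign. The count of 3 genes past the limits was 0 with the methods' t-test (0 higher, 0 lower) and 0 at an adjusted p under 0.05. Of higher genes, 1 was left after quantile normalization and 1 after cyclic loess, where Pdpr had 0.57 and 0.58. With 1 array left out the count ran from 0 to 4, with 0 to 3 higher and 0 to 1 lower. All genes past the limits numbered 1233, against 625 with the methods' t-test (0 after Benjamini-Hochberg adjustment), 2051 with array weights, 2 at an adjusted p under 0.05, and 982 to 2037 with 1 array left out. The paper's figure legend speaks of 3 pairs of sham and CKD mice, and the sample labels name no pairs. The replicate number as a block gave 3 genes of the pathway and 1201 of all. Same-numbered hearts did not deviate together (correlations of −0.18, −0.03 and −0.19). With deviations from means of 3 mice, these values cannot show whether the mice were paired. Signs changed for Pdha1 with array weights (0.14) and quantile normalization (0.0203), for Pdk1 (0.0022) and Pdk2 (0.0142) with quantile normalization, for Cs with array weights (0.11), quantile normalization (0.0689) and cyclic loess (0.0389), and for Mdh1 with array weights (0.0697) and cyclic loess (0.0482). With 1 array left out the values ran from −0.32 to 0.19 for Pdha1, −0.52 to 0.37 for Pdk1, −0.39 to 0.10 for Pdk2, −0.16 to 0.10 for Cs, −0.16 to 0.37 for Idh1, −0.41 to 0.14 for Idh3a, −0.04 to 0.31 for Ogdh, −0.16 to 0.32 for Suclg2, −0.0333 to 0.0617 for Fh1, −0.10 to 0.15 for Mdh1, −0.16 to 0.18 for Got1 and −0.11 to 0.30 for Me2. The cause was not tested. The median of the pathway lay between 0.06 and 0.19 under every setting run. With 3 mice per group the median standard error of these genes was 0.23. Levels near the median of an array, as for Pdk3, Pcx, Me2 and the called gene Pdp2, carry no detection call.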

Other observations

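Markers of other cell types and of neighbouring tissue were counted beside the pathway, with differences as CKD minus sham. Over all genes 3.13% were higher past the limits and 3.19% lower. Of 6 atrial genes 3 were higher in CKD hearts, while the atrial gene Nppa had −0.52 and did not pass. Of 2 red blood cell genes Alas2 was higher and Slc4a1 had 0.54. Of 8 lymphocyte genes Jchain was higher, at log2 levels of 6.39, 5.33 and 8.72 in CKD hearts and 4.65, 3.31 and 3.33 in sham hearts. The other 7 lymphocyte genes did not pass. Of 6 brown fat genes Ucp1 was higher and Ppargc1a was lower. None of 9 skeletal muscle, 7 fibroblast or 8 endothelial genes passed the limits. The median log2 fold change was 3.23 for the atrial genes, 0.16 for lymphocytes, 0.09 for brown fat, 0.15 for skeletal muscle, 0.32 for fibroblasts and −0.35 for endothelium.

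Eif2s3y, another Y-linked gene, had 4.02, 4.04 and 7.90 in CKD hearts and 4.24, 1.24 and 1.26 in sham hearts. CKD replicate 3 was thus the highest heart for Eif2s3y, Uty, Bmp10, Jchain and Adipoq, which are genes picked from longer lists. For the lymphocyte genes Cd3e (3.16), Cd3g (3.05), Cd4 (5.28) and Cd8a (2.84) the same heart was the lowest. It was the heart most often highest in the pathway of pyruvate and the TCA cycle, and a link between these observations was not tested.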
